A study of Mus musculus with 46 samples.

Results

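The nuclear genes of the mitochondrial respiratory chain were described across 46 mouse libraries. A gene was taken in when its symbol begins as the names of complex I subunits (Ndufa, Ndufb, Ndufc, Ndufs, Ndufv with a number, and Ndufab1), is Sdha, Sdhb, Sdhc or Sdhd, begins with Uqcr, is Cyc1 or Cycs, begins with Cox4 to Cox8 and a letter, or begins with Atp5. Of the 55487 genes listed, 106 matched, 14 with a symbol ending in -ps were set aside, and 92 remained. They comprise 41 genes of complex I, 4 of complex II, 9 of complex III, cytochrome c, 19 of complex IV and 18 of complex V, as the names place them. GENCODE M21 types 88 of the 92 as protein-coding genes and 4 as processed pseudogenes, namely Ndufa11b, Ndufb4c, Ndufs6b and Cox6c2, of which only Ndufs6b was tested, in livers alone. Atp5o occurs at a pair of identifiers, of which the second had no count in any library.

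The respiratory chain passes electrons from NADH through complex I, or from succinate through complex II, to complex III, then by cytochrome c to complex IV, which hands them to oxygen, while complex V makes ATP from the proton gradient that results. Complexes I, III, IV and V are built from proteins of both genomes: a small core is encoded by mitochondrial DNA, and all other subunits, with the whole of complex II and cytochrome c, are encoded in the nucleus. In pancreatic β cells this ATP couples glucose to insulin release, and in liver it feeds gluconeogenesis and urea synthesis. Several subunits exist as isoforms of which one is the usual form and another is known from heart and skeletal muscle, such as Cox6a1 and Cox6a2.

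The libraries were made from islets of mice labelled Tfam control or Tfam KO, islets of mice labelled Clec control or Clec KO, and livers labelled control, Mfn DKO or Tfam KO. Tfam packages mitochondrial DNA and acts in its transcription, Clec16a acts in the removal of damaged mitochondria, and the mitofusins Mfn1 and Mfn2 join mitochondria. Tfam islets comprised 5 control and 4 KO female libraries and 3 control and 2 KO male ones, with no diet in the labels. For Clec16a, 4 control and 4 KO islet libraries came from a diet given as RFD, and 6 control and 5 KO libraries from one given as HFD, with no sex per library and neither diet name written out. There were 6 control livers, 4 livers labelled Mfn DKO and 3 labelled Tfam KO, and every liver description, controls included, carries the letters AAV. The labels give no strain, age, promoter or Cre for any group. They call the replicates biological without naming an animal, so the p-values measure only the spread between these libraries. Some pairs of libraries were closer than the rest of their group, by the chi-square per gene between them. It was 8.50 for Clec16a RFD control replicates 3 and 4, against 38.0 to 154.5 for other pairs of that group. For Tfam female control replicates 1 and 2 it was 10.9, against 67.7 to 212.4. Whether these pairs come from separate animals is not given. Islets stayed in culture overnight before RNA was isolated, and livers were flash frozen.

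The targeted genes were checked first. In islets, Tfam measured 37.8 to 44.7 CPM (the count over the library total, times 1e+06, with totals scaled by TMM) over the female and male controls and 16.0 to 18.95 over the KO libraries. In livers, Tfam measured 54.2 to 66.2 CPM in controls and 13.1 to 15.9 in Tfam KO, and in Mfn DKO livers Mfn1 and Mfn2 measured 15.7 to 25.4 and 32.3 to 45.1, against 67.8 to 88.3 and 113 to 190.9 in controls. Clec16a did not pass the test in Clec16a KO islets, at log2 fold changes of 0.13 on RFD and 0.08 on HFD, so this gene does not check those labels. The labels give no sex for the livers, and Xist exceeded 100 CPM in 3 of 6 controls, 2 of 4 Mfn DKO and 2 of 3 Tfam KO libraries. Total counts ran from 55223041 to 83342809 in Tfam islets, from 16235173 to 55810879 in Clec16a islets and from 41961114 to 56894510 in livers. In whole tissue, fewer cells of a type and less RNA per cell cannot be told apart.

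Promoter sequences are shown for 4 genes on which the results turn, from RefSeq on GRCm38.p6, each running from 250 bases before the annotated start into the first bases of the transcript, on the gene's own strand. Capitals mark matches, on either strand, to motifs of factors known to act on these genes: GCGC, any base and then TGCGC for NRF1, CCGGAAG for ETS factors such as GABP, and AAGATGGC for YY1. Cox6a1, the usual liver form of subunit 6A (chr5:115348929-115349208, minus strand), has 2 NRF1 matches and 1 ETS match, and Ndufa5 (chr6:24527661-24527940, minus strand) has 1 NRF1 match. Ndufa3 (chr7:3617123-3617402, plus strand) has 1 YY1 match, and the window of Cox7a2l (chr17:83514304-83514583, minus strand) has none of these. That window lies inside the GENCODE M21 gene, which reaches to 83517330, and the window of Ndufa5 lies inside its gene, which reaches to 24528013. The stretches before those outer starts are not shown, so the absence of a motif holds for the window alone.
Cox6a1: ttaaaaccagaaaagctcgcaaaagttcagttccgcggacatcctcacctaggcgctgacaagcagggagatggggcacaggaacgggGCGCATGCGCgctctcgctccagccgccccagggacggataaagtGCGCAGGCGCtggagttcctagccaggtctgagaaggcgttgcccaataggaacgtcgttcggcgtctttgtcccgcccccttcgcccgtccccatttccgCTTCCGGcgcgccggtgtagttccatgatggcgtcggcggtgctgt
Ndufa5: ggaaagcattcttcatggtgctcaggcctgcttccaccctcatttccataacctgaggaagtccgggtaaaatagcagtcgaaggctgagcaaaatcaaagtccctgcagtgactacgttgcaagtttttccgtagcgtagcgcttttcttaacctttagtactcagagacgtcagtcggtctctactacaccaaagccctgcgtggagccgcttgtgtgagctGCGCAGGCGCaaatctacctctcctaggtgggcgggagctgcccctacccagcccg
Ndufa3: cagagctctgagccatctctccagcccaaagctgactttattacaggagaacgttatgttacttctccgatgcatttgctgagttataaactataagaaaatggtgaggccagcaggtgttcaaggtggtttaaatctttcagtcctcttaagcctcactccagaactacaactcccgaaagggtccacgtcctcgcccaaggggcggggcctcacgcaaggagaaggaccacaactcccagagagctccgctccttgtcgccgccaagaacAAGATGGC
Cox7a2l: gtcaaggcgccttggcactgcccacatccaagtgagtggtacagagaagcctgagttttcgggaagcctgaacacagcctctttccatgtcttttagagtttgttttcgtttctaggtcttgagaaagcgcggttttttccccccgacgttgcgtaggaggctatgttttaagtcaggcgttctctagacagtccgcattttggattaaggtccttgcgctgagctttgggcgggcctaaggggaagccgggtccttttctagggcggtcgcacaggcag

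RefSeq promoters were found for 70 member symbols, 75 promoters in all, and set beside all 32851 in the same table. The NRF1 motif stood in 18 of the 75, or 24.0%, against 4.6% of all promoters. The ETS motif stood in 22.7% against 8.86%, and the YY1 motif in 13.3% against 2.75%. CAAGGTCA, the motif of estrogen-related receptors, stood in 5.33% against 1.56%. TGATGNAA, bound by ATF4 and its partners, stood in none of the 75 and in 3.97% of all. By complex, the NRF1 motif was in 8 of 35 promoters of complex I, 2 of 3 of complex II, 1 of 5 of complex III, 1 of 13 of complex IV and 6 of 18 of complex V. A match is a string of letters, not evidence of binding.

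In the control tissues, most subunits were at higher levels in liver than in islets. Levels are compared between genes as TPM, the deposited measure that divides by exonic length. Of 85 members with at least 10 counts in a control library, 73 had every control liver above every control islet library (8 Tfam controls and 4 Clec16a controls on RFD), 3 had every liver below, and 9 overlapped. Over all 22289 genes compared in this way, 17.8% were higher in livers and 33.9% lower. The median over members of the ratio of the liver to the Tfam islet median was 2.55, and by complex it was 2.28 for I, 2.63 for II, 3.47 for III, 2.95 for IV and 2.67 for V. Ins1 and Ins2 took 28.6% to 41.2% of all TPM in Tfam control islets, and the tissues were sequenced in separate experiments, so tissue and experiment cannot be told apart.

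Atp5a1, the α subunit of the catalytic head of complex V, was among the leading members in both tissues. In islets the highest levels were those of Cox8a, a small complex IV subunit, at 409 ± 32.2 TPM (SD, n = 12), and Atp5a1 at 383 ± 48.0. The islet values pool both experiments, and these genes led in each: Cox8a and Atp5a1 had medians of 420.0 and 398 TPM in Tfam controls and 402 and 330.2 in Clec16a controls on RFD. The next gene differed, being Ndufa1, a membrane-arm subunit of complex I, at a median of 368 in Tfam controls, and Cox6a1, at 307, in Clec16a controls. In livers the leaders were Atp5a1 at 939 ± 18.8 TPM (SD, n = 6) and Atp5b, the β subunit beside it, at 910.1 ± 26.3. Cox6a1 followed at 821 ± 43.8 and Cox4i1, the usual form of complex IV subunit 4, at 731 ± 58.2. Within complex II, the membrane anchor Sdhd led in both tissues, at 179 ± 25.0 in islets and 491 ± 39.6 in livers. Within complex III, the small subunit Uqcr11 led in livers, at 617 ± 51.1. In islets it led in Tfam controls, at a median of 170.0 TPM against 149 for Uqcr10, and Uqcr10 led in Clec16a controls on RFD, at 131 against 117. At the other end, Atp5l, subunit g of complex V, was at 2.23 ± 1.01 TPM in islets and 1.43 ± 0.22 in livers. That value is uncertain, since the gene carries 6443 exonic bases and 76.0% of its 75-base stretches also occur in other genes, most of them pseudogenes.

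The 3 members that were lower in livers are all isoforms. Cox6a2, the heart and muscle form of subunit 6A, ran from 80.0 to 179 TPM in Tfam control islets, from 51.8 to 281 in Clec16a controls on RFD and from 0 to 0.298 in control livers. It made up 22.2% to 44.7% of the summed TPM of Cox6a1 and Cox6a2 in Tfam control islets. Cox4i2, the second form of subunit 4, ran from 1.86 to 3.54 TPM in Tfam control islets and from 0 to 0.514 in control livers. Ndufa4l2 ran from 4.19 to 6.75 TPM in Tfam control islets and from 2.11 to 3.42 in control livers. It resembles Ndufa4, named for complex I and now regarded as a complex IV subunit, which lay at 114 to 170.1 TPM in Tfam control islets and at 459.9 to 618 in control livers.

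**Figure D1:**
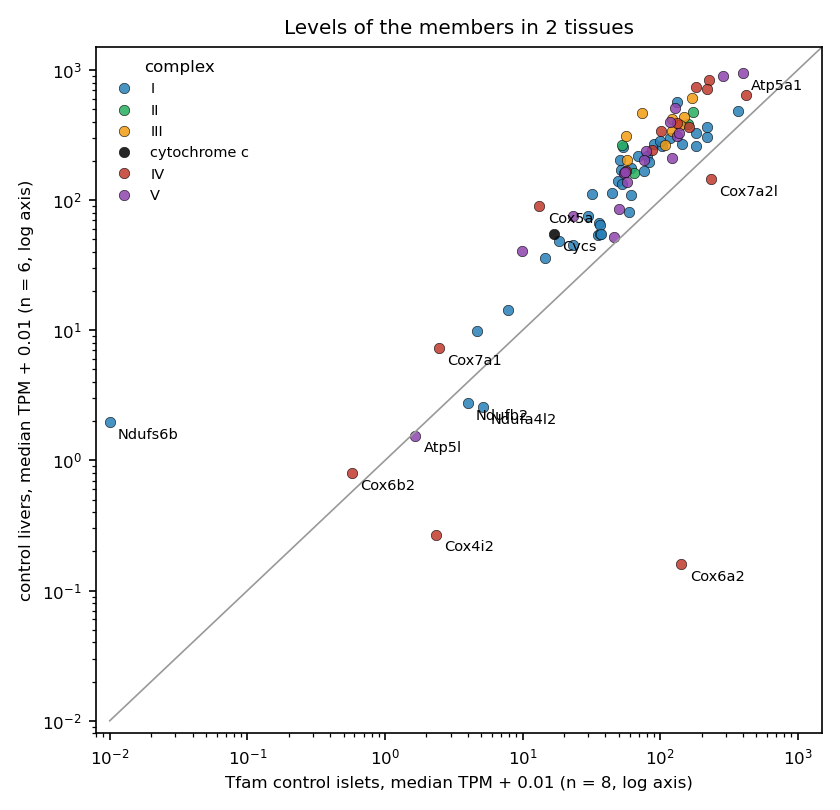
Level of each member in control islets (horizontal axis, median TPM of 8 Tfam control libraries) against control livers (vertical axis, median TPM of 6 libraries), 1 point per gene on log axes, coloured by complex, with the line of equal level. Most points lie above the line, and Cox6a2, Cox4i2 and Ndufa4l2 lie below it.

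As a share of all counts, the members together took 0.542% to 0.725% in Tfam control islets and 0.680% to 0.766% in Tfam KO islets. Female control replicates 3 and 4, at 0.725% and 0.703%, lay among the KO values, and the other 6 controls lay below all of them. In Clec16a islets the share was 0.491% to 0.633% in controls and 0.490% to 0.682% in KO libraries, which overlap throughout. In livers it was 1.40% to 1.61% in controls, 1.44% to 1.67% in Mfn DKO and 1.74%, 1.93% and 2.34% in Tfam KO. The mitochondrial-DNA-encoded subunits moved the other way: they took 0.978% to 1.27% of counts in Tfam control islets and 0.174% to 0.231% in Tfam KO islets, and 3.02% to 4.34% in control livers against 0.119%, 0.514% and 0.131% in Tfam KO livers. In Mfn DKO livers they took 1.87% to 2.57%.

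**Figure D2:**
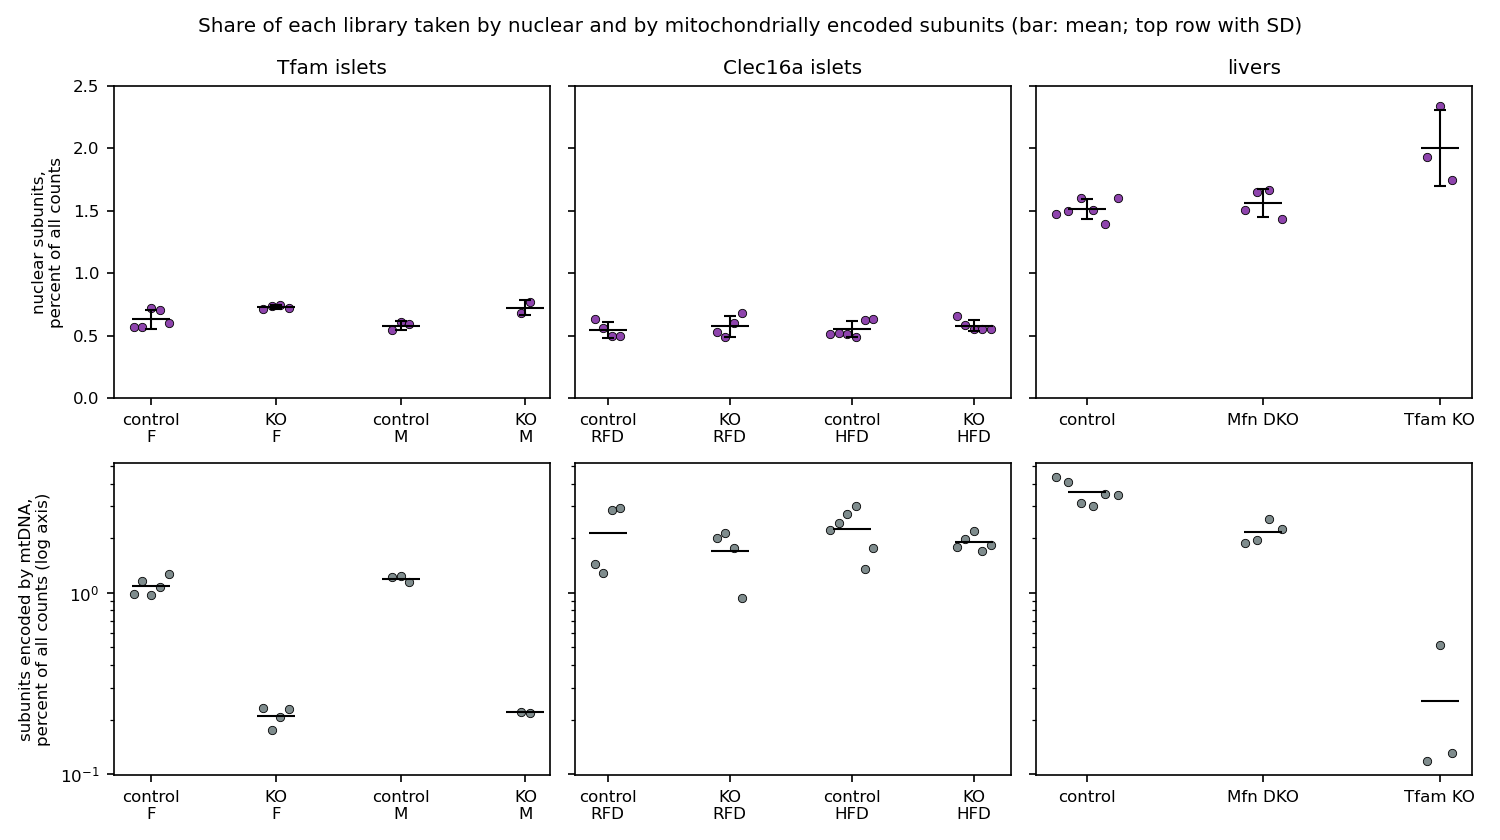
Share of all counts (vertical axis, %) taken by the nuclear members (top row) and by the subunits encoded in mitochondrial DNA (bottom row, log axis), 1 point per library, with group means and, in the top row, the SD. Tfam KO groups lie high in the top row and low in the bottom row, and Clec16a groups overlap in the top row.

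A share of counts depends on what else is in the library. On total counts, without the TMM factor, the median over all genes was 0.20 (log2) in Tfam KO islets and 0.46 in Tfam KO livers. It was 0.12 in Clec16a KO islets on HFD and 0.21 in Mfn DKO livers. On that scale the members' median was 0.25 in Tfam KO islets and 0.36 in Tfam KO livers. The members' median was 0.04 in Clec16a KO islets on HFD and 0.01 in Mfn DKO livers. With TMM, the members' median minus that of all genes was 0.04 in Tfam KO islets, -0.20 in Mfn DKO livers and -0.10 in Tfam KO livers, and on total counts it was 0.05, -0.20 and -0.10. Calls are given on the TMM scale, with the split on total counts beside them.

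Tfam KO islets had a few changed subunits in both directions, with a median near 0. A call here means an adjusted p of at most 0.05 in edgeR's quasi-likelihood test with Benjamini-Hochberg adjustment over all genes, with sex as a term, and 84 members were tested. Of these, 6 rose and 2 fell, or 8 in all, where 20.9% of all genes were called (11.6% higher, 9.29% lower). The members' median log2 fold change was 0.03, beside -0.01 over all genes, and 48 of 84 lay above 0. On total counts 45 rose and none fell, where 6208 of all 19752 genes rose and 617 fell. Complex I had 3 higher and 1 lower of 38 tested, complex III 2 higher of 9, complex IV 1 higher of 15, complex V 1 lower of 17, and complex II and cytochrome c had none.

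In complex I, Ndufa5, an accessory subunit of the matrix arm (chr6:24518666-24528013, minus strand), measured 20.5 to 32.7 CPM with a median of 23.1 in the 5 female controls and 30.6, 32.2, 31.9 and 31.5 in the female KO libraries. It measured 20.7, 21.7 and 23.6 CPM in the male controls and 29.0 and 34.0 in the male KO libraries. The KO libraries lay above every control but female replicate 4. The log2 fold change was 0.40 (SE 0.09, adjusted p = 0.00527, edgeR). Ndufb2, of the membrane arm, went the other way. Its female controls measured 12.9, 13.4, 9.99, 10.7 and 10.6 CPM against 8.22, 8.44, 8.29 and 8.74 in female KO libraries, and its male controls 13.4, 9.65 and 9.13 against 7.54 and 7.11. No KO library reached a control, and the log2 fold change was -0.48 (SE 0.10, adjusted p = 0.00203, edgeR). Ndufa10 and Ndufb10, further accessory subunits, rose by 0.17 and 0.22 (log2), and Ndufb10 lost its call in 14 of 22 alternative fits.

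In complex III, Cyc1, the haem-bearing cytochrome c1 (chr15:76343523-76346260, plus strand), measured 49.6, 53.8, 63.1, 56.5 and 50.4 CPM in female controls and 67.5, 69.7, 72.5 and 71.1 in female KO libraries. In males it measured 61.7, 60.1 and 57.8 CPM in controls and 66.1 and 74.4 in KO libraries. Controls and KO libraries did not overlap in either sex, with a log2 fold change of 0.32 (SE 0.06, adjusted p = 0.00127, edgeR). Uqcrq, a small subunit of the same complex, measured 49.8, 49.0, 102.8, 98.2 and 59.9 CPM in female controls against 87.9, 110.4, 103.8 and 99.0 in female KO libraries. It measured 57.1, 66.6 and 64.1 CPM in male controls against 93.3 and 113 in male KO libraries. Female control replicates 3 and 4 lay among the KO values and the other 6 controls below them. The log2 fold change was 0.57 (SE 0.16, adjusted p = 0.0166, edgeR), and without male KO replicate 2 it was 0.51 and lost its call.

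In complex IV only Cox6a2 (chr7:128205435-128206387, minus strand) passed the test. It measured 46.6, 43.4, 25.6, 51.0 and 24.7 CPM in female controls and 67.98, 61.8, 66.9 and 66.3 in female KO libraries, and 54.3, 53.2 and 45.7 in male controls against 84.2 and 92.5 in male KO libraries. Every KO library lay above every control, and the log2 fold change was 0.79 (SE 0.14, adjusted p = 0.000759, edgeR). Cox6a1 measured 66.1 to 106 CPM in controls and 89.9 to 103 in KO libraries, so the KO values lay within the control range. The Cox6a2 share of both forms was 22.2% to 44.7% in controls and 40.1% to 48.2% in KO islets. Exons of Itgad lie opposite 10.3% of the exonic length of Cox6a2, and whether reads were assigned by strand is not given in the sources used here. Itgad had medians of 2.92 CPM in female controls, 2.15 in female KO, 4.84 in male controls and 1.78 in male KO libraries.

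In complex V, Atp5l fell, at a log2 fold change of -0.57 (SE 0.14, adjusted p = 0.0101, edgeR), with the uncertainty of shared sequence given above. It measured 3.65 to 6.01 CPM in female controls and 2.83 to 4.36 in female KO libraries, which overlap, and 5.04 to 6.85 in male controls against 3.62 and 3.10 in male KO libraries. On total counts the calls of Atp5l and Ndufb2 were lost, at -0.36 and -0.28. Among the 3 genes of the rotor ring, the Atp5g3 share of summed TPM was 63.9% to 66.2% in controls and 58.3% to 62.4% in KO islets, without overlap, while none of the 3 was called.

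No member's response was shown to differ between the sexes. The fitted difference, males minus females, lay above 0 for 73 of 84 members. Its median was 0.15 (log2), beside -0.001 over all genes, and 0.06 to 0.22 when 1 library was left out. The members as a set were not tested. In females 2 members rose and 1 fell (10.8% of all genes called, 6.67% higher and 4.17% lower), namely Cyc1, Cox6a2 and Ndufb2. On total counts 26 rose in females, where 4444 of all 19752 genes rose. In males 1 rose (8.93% of all genes called, 5.24% higher and 3.69% lower), namely Ndufa5. On total counts 30 rose in males, where 2860 of all 19752 genes rose. The interaction of genotype with sex called 0 of 84 members by edgeR (0% of all genes called), with 0 at an unadjusted p under 0.05, beside 6.23% of all genes. The Wald test of DESeq2 called 0 members, where it called 34 of 19707 genes. The smallest p-values were those of Sdhd, at a log2 difference of 0.39 between males and females (adjusted p = 0.856, edgeR), and Atp5mpl, at 0.44 (adjusted p = 0.861). The call of Ndufb2 in females was lost without female control replicate 1 or 2 or any 1 female KO library. The call of Ndufa5 in males was kept when female control replicate 1, 2, 3 or 4 was left out and lost when any other library was, and 9 members were called in males without female control replicate 4, 4 without replicate 3 and 2 without replicate 5. These comparisons share their libraries with the comparison over both sexes.

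A single control library bore on these counts. On the TMM scale, female control replicate 4 was the highest of its group for 67 of 84 members, by a median of 0.47 (log2) over the group median. Its TMM factor was 0.83, against 0.94 to 0.98 in the other female controls. Before scaling, the members took 0.703% of its counts, less than the 0.725% in replicate 3. Without female control replicate 4, 21 members rose and 2 fell, 23 in all, and without male KO replicate 2 the count was 5. The share of all genes called in these refits is not given, so a change particular to the members cannot be told from one over all genes. Over members, the median coefficient of variation was 21.1% in female controls and 5.33% in female KO libraries. β-cell markers fell in Tfam KO islets, 9 of 9, with a summed level of 188500 to 294700 CPM in female controls and 105700 to 141500 in female KO libraries. Exocrine markers summed to 1200 to 11960 CPM in female controls, 1758 to 4642 in female KO, 2519 to 7536 in male controls and 4237 to 21340 in male KO libraries. Their part in the members' values was not tested, beyond a fit with the exocrine score as a covariate, in which the call of Ndufa5 in males and that of Ndufb2 in females were lost.

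In the wider pathway, 11 of 11 tested mitochondrial-DNA-encoded subunits fell, with a median log2 fold change of -2.64. Of 51 tested assembly factors, which build the complexes, 9 rose and 1 fell, and on total counts 33 rose and none fell. Those that rose include Surf1 and Cox10, both needed for complex IV, at 0.35 and 0.41. Of 9 transcription regulators of respiration, 3 rose, and on total counts 7. Nrf1, the factor of the NRF1 motif, had a log2 fold change of 1.19 (adjusted p = 5.76e-09, edgeR), and the coactivator Ppargc1a one of 0.67. The 17 tested members with an NRF1 match in the promoter shown by RefSeq had a median of 0.05 (log2) and 1 call higher, and the 51 without one had 0.00 and 2 calls higher and 2 lower.

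**Figure D3:**
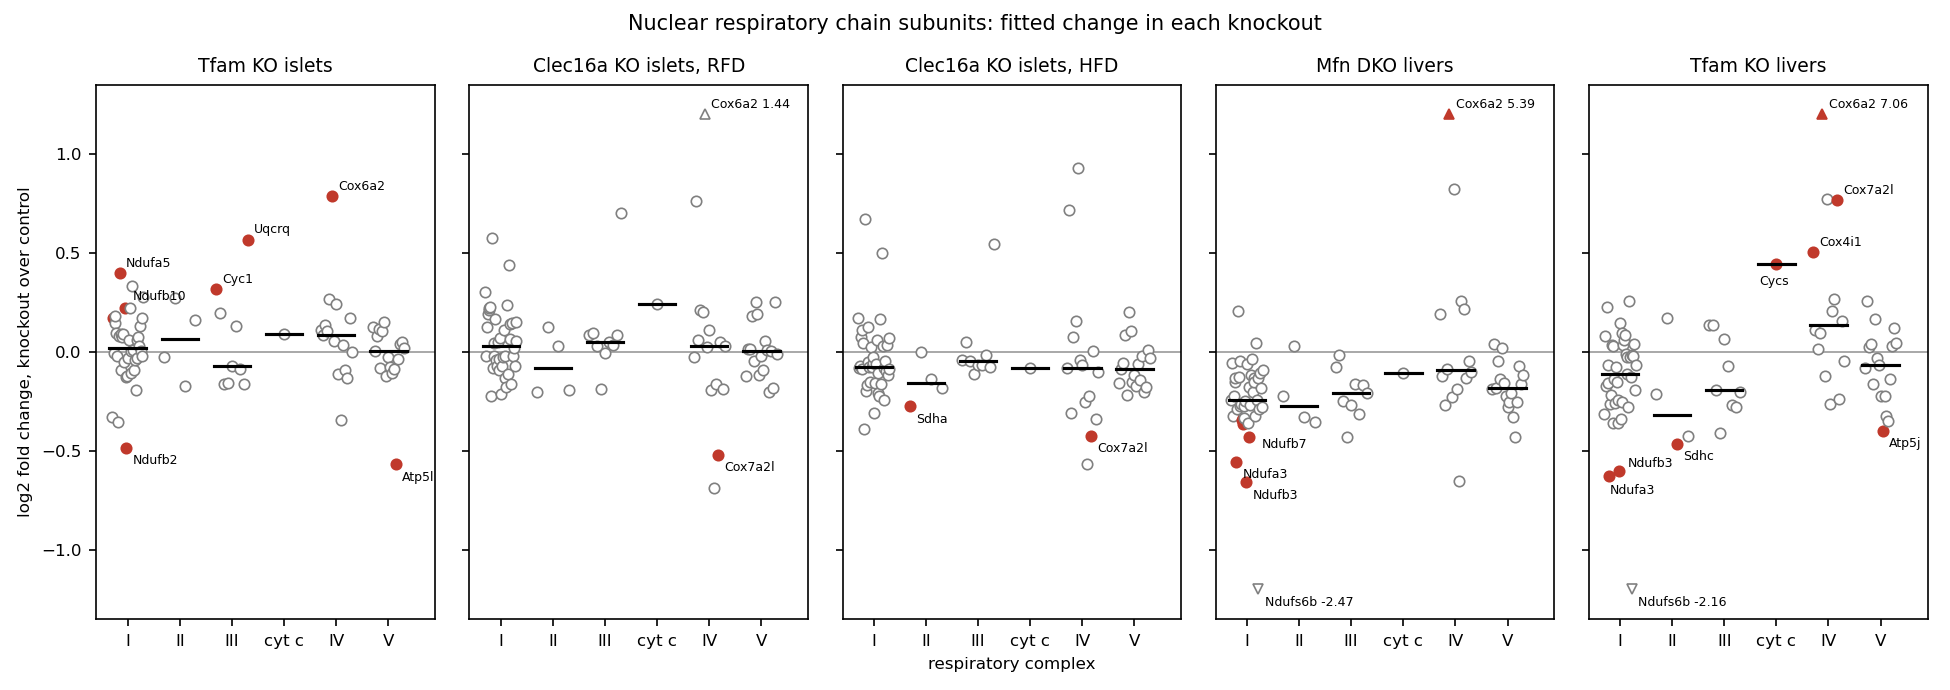
Log2 fold change (vertical axis) of each tested member by complex (horizontal axis) in the 5 comparisons of KO with control, 1 point per gene, with the median of each complex as a bar and values beyond the axis as triangles with their value. Filled points are called by edgeR and carry names, except Ndufa10 in Tfam KO islets, and Ndufa9 and Ndufab1 in Mfn DKO livers. The medians of complexes I to V lie between -0.16 and 0.08 in the islet panels and below 0 in Mfn DKO livers.

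In Clec16a KO islets, 1 member stood out on both diets: Cox7a2l fell. Cox7a2l (chr17:83501918-83517330, minus strand) encodes the protein that joins complexes III and IV into a supercomplex. On RFD it measured 106, 99.1, 126 and 128 CPM in controls and 77.2, 81.1, 83.9 and 78.5 in KO libraries. On HFD it measured 93.1 to 124 with a median of 115.5 in the 6 controls, and 80.5, 90.2, 71.0, 92.3 and 89.8 in KO libraries. The groups did not overlap on either diet, although the lowest HFD control, replicate 4 at 93.1, lay next to the highest KO library at 92.3. The log2 fold change was -0.52 on RFD (SE 0.11, adjusted p = 0.00742, edgeR) and -0.42 on HFD (SE 0.09, adjusted p = 0.00642, edgeR).

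The fall of Cox7a2l was also seen within each sequencing lane, at log2 ratios of means of -0.36 in lane 7 and -0.65 in lane 8 on RFD, and of -0.48 and -0.37 on HFD. On RFD, lane 8 holds 1 KO library and 2 controls. Those controls are replicates 3 and 4, the close pair above, for which separate animals are not given. It kept its call in 28 of 28 alternative fits on each diet. Of its 75-base stretches, 13.4% also occur in the pseudogene Gm6969. Endothelial markers summed to 332 to 358 CPM in RFD controls and 538 to 663 in RFD KO libraries, and to 305 to 400.3 and 355 to 632 on HFD, with 5 of 6 genes called higher on RFD and 6 of 6 on HFD. Fibroblast markers summed to 41.9 to 53.1 and 54.3 to 99.1 CPM on RFD and to 37.2 to 69.7 and 59.96 to 110.2 on HFD, with 2 and 4 of 6 called higher. Macrophage markers summed to 178 to 209 CPM in controls and 123 to 178 in KO libraries on RFD and to 125 to 221 and 119 to 203 on HFD, with 1 of 7 called lower on each diet. β-cell markers summed to 210400 to 347100 and 195100 to 228900 CPM on RFD and to 232100 to 337800 and 137200 to 248800 on HFD, with 2 of 9 called lower on each. Exocrine markers summed to 4895 to 11020 and 2166 to 14470 CPM on RFD and to 10690 to 32750 and 9415 to 21540 on HFD, with 1 of 14 called, higher on HFD. No gene of these 5 lists was at 0 in every library of a group, and their part in the values of Cox7a2l and the other members was not tested.

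In Tfam islets Cox7a2l was not called, at 130 to 206 CPM in controls and 146 to 167 in KO libraries.

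**Figure D4:**
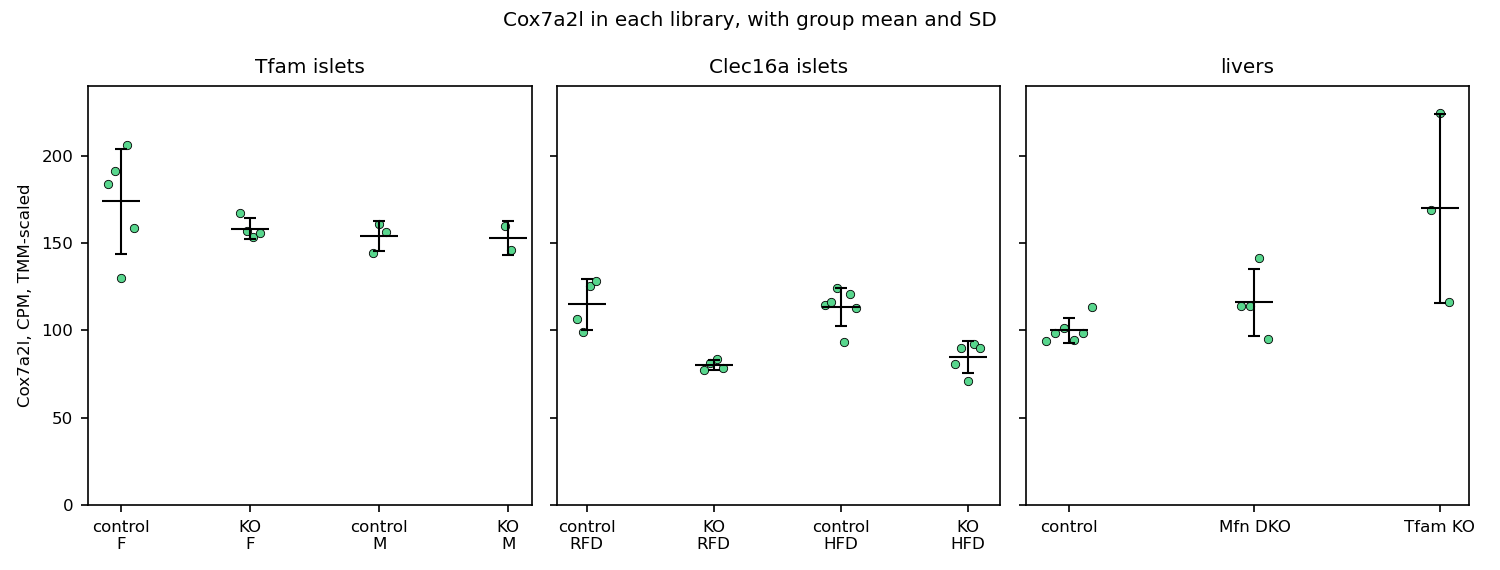
Cox7a2l in each library (vertical axis, TMM-scaled CPM) by group, with the group mean and SD. Clec16a KO libraries lie between 71.0 and 92.3 on both diets, below all Clec16a controls, and the Tfam KO livers lie above all control livers.

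Over all members, Clec16a KO islets had 0 higher and 1 lower on RFD (7.52% of all genes called, 3.99% higher and 3.54% lower) and 0 higher and 2 lower on HFD (9.57% of all genes called, 5.62% higher and 3.95% lower). On total counts 1 rose and 1 fell on RFD, and 3 rose and 1 fell on HFD. Of all 17254 genes on that scale, 714 rose and 483 fell on RFD, and 1775 rose and 352 fell on HFD. The second call on HFD was Sdha, the flavoprotein that oxidises succinate in complex II, which measured 227 to 273 CPM with a median of 237 in controls and 202, 189, 185, 234 and 199.8 in KO libraries. KO replicate 4 lay within the control range and the other 4 below it. The log2 fold change of Sdha was -0.28 (SE 0.08, adjusted p = 0.0387, edgeR), and the call was lost in 11 of 28 alternative fits, among them those without HFD control replicate 2, 5 or 6 and those without HFD KO replicate 1, 2, 3 or 5. On RFD it was -0.20, not called.

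The members with the largest fold changes in Clec16a KO islets did not pass the test. Cox6a2 had log2 fold changes of 1.44 on RFD (adjusted p = 0.0856, edgeR) and 0.93 on HFD. It measured 31.9, 105, 16.0 and 26.1 CPM in RFD controls against 155, 90.3, 136 and 107 in RFD KO libraries, and 27.1 to 128 in HFD controls against 47.8 to 143 in HFD KO libraries. RFD control replicate 2 lay above 1 KO library, the other 3 RFD controls lay below all of them, and the HFD groups overlapped. Uqcrq had log2 fold changes of 0.70 (adjusted p = 0.0524, edgeR) and 0.54 (adjusted p = 0.0681), Cox4i2 of 0.76 and 0.72, and Ndufa4l2 of 0.57 and 0.67. Without HFD KO replicate 4 the HFD count became 3 higher and 2 lower, and without RFD control replicate 2 the RFD count became 2 higher and 1 lower. Without HFD control replicate 1 the HFD count was 2 higher and 2 lower, and without HFD KO replicate 1 or 4, or RFD KO replicate 2 or 3, the RFD count was 1 higher and 1 lower. The share of all genes called in these refits is not given.

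The diets made no difference that passed the test. HFD against RFD called 0 of 84 members in controls (0.0406% of all genes called) and 0 in KO islets (0.0116% of all genes called), and the interaction called 0 (0% of all genes called), all by edgeR. At an unadjusted p under 0.05 these were 0, 2 and 0 members, beside 5.64%, 5.48% and 2.35% of all genes. The Wald test of DESeq2 called 0 members in each. The smallest p in controls was that of Cox6b2, the testis form of subunit 6B and a low-expressed gene in islets, at a log2 fold change of -0.95 (adjusted p = 0.885, edgeR), and in KO islets it was at -1.12 (adjusted p = 0.844). The interaction was 0.09 for Cox7a2l on the log2 scale (adjusted p = 1, edgeR). Of the wider pathway, 0 of 8 tested mitochondrial-DNA-encoded subunits were called on either diet by edgeR, with 0 at an unadjusted p under 0.05, and 1 of 52 assembly factors, Coa7, fell on HFD. Among regulators, Nrf1 rose by 0.47 and Ppargc1a fell by 1.26 (log2) on HFD.

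In Mfn DKO livers, the calls were 5 members of complex I lower and Cox6a2 higher, a smaller share of members (7.14%) than of all genes. Of 84 members tested, 1 rose and 5 fell in Mfn DKO livers (9.87% of all genes called, 5.23% higher and 4.64% lower), the median log2 fold change was -0.19 beside 0.02 over all genes, and 10 of 84 lay above 0. On total counts 2 rose and 1 fell, where 1653 of all 17024 genes rose and 356 fell. By complex the medians were -0.24 for I, -0.28 for II, -0.21 for III, -0.09 for IV and -0.18 for V. In all, 28 members (33.3%) had an unadjusted p under 0.05, beside 27.6% of all genes.

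Ndufb3, a membrane-arm subunit of complex I (chr1:58586384-58595964, plus strand), fell most clearly. It measured 104, 105, 92.6, 82.1, 81.2 and 117 CPM in the 6 control livers and 57.3, 65.1, 60.2 and 63.2 in Mfn DKO, with no overlap and a log2 fold change of -0.66 (SE 0.14, adjusted p = 0.0135, edgeR). Ndufa3, the small membrane-arm subunit with the YY1 match above (chr7:3617373-3620327, plus strand), measured 85.7 to 113 CPM in controls with a median of 98.1 and 61.1, 71.4, 65.4 and 69.5 in Mfn DKO, again with no overlap. Its log2 fold change was -0.55 (SE 0.14, adjusted p = 0.0272, edgeR). Ndufa9, which lies near the ubiquinone site, had -0.35, Ndufb7 had -0.43, and Ndufab1, the mitochondrial acyl carrier protein, had -0.36. Ndufa9 lost its call in 9 alternative fits, Ndufab1 in 10 and Ndufb7 in 11, of 21 each, and Ndufa3 lost its call in 7, among them those without control replicate 6 or any 1 Mfn DKO replicate. Without Mfn DKO replicate 1 no member was called lower, and without Tfam KO replicate 2 or 3, which share the fit, 15 were. Without control replicate 6, or Mfn DKO replicate 3 or 4, 1 was called lower. The share of all genes called in these refits is not given.

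The 1 member that rose in Mfn DKO livers was Cox6a2. Control livers held 0, 2, 4, 2, 2 and 4 counts of it, Mfn DKO livers 136, 118, 153 and 54, and Tfam KO livers 870, 482 and 61. On the CPM scale these are at most 0.0994 in controls, 2.88, 2.28, 3.09 and 0.946 in Mfn DKO, and 14.3, 6.26 and 1.36 in Tfam KO, so every KO library lay above every control. Pooled over libraries, the ratio to controls was 49.4 in Mfn DKO (95% exact interval 23.5 to 124) and 203 in Tfam KO (97.9 to 506). These intervals cover counting error only and were computed with each sum divided by 2, because most low counts in livers are even, as when both reads of a pair are counted. The log2 fold change was 5.39 in Mfn DKO (SE 0.68, adjusted p = 0.000712, edgeR) and 7.06 in Tfam KO (SE 0.71, adjusted p = 0.000133, edgeR).

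Cox6a2 stayed a minor form in liver. Cox6a1 measured 235 to 288 CPM in control livers, 234 to 269.9 in Mfn DKO and 266 to 308 in Tfam KO, and Cox6a2 made up at most 1.19% of both forms in Mfn DKO and 4.82% in Tfam KO, against at most 0.0356% in controls. The difference between Tfam KO and Mfn DKO was 1.67 (log2, adjusted p = 0.165, edgeR) and did not pass. Markers of skeletal muscle and brown fat, where Cox6a2 is normally found, summed to 0.0822 to 0.411 CPM in controls, 0.0525 to 0.213 in Mfn DKO and 0.313 to 9.14 in Tfam KO, over 6 genes. The 9.14 belongs to Tfam KO replicate 1, where Ucp1 measured 7.24 CPM and Cidea 1.90. Of the muscle genes among the 6, Ckm, Myh4 and Tnnt3 had at most 2 counts in any liver, and Acta1 at most 46, in Tfam KO replicate 2. In Mfn DKO livers Ucp1 had 0 counts in all 4 libraries and Cidea at most 10. Cox8b, the muscle form of subunit 8 and a member too low to be tested, had 70 counts in Tfam KO replicate 1 and at most 6 in any other liver. The part of these cells in the level of Cox6a2 was not tested. Without Tfam KO replicate 1 the log2 fold change of Cox6a2 was 6.13 and kept its call. Itgad, on the strand opposite Cox6a2, had a median of at most 0.0837 CPM in any liver group.

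**Figure D5:**
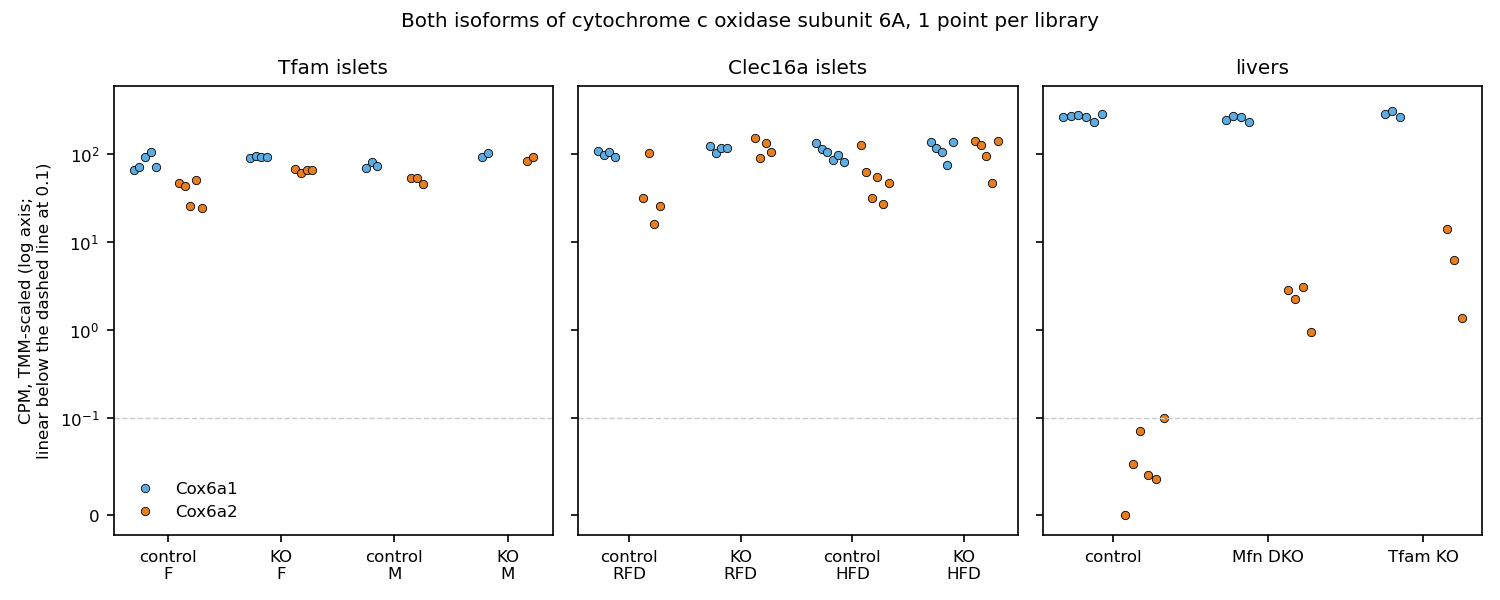
Cox6a1 and Cox6a2 in each library (vertical axis, TMM-scaled CPM, log axis that is linear below 0.1) by group. In Tfam control islets Cox6a2, at 24.7 to 54.3, lies below Cox6a1, at 66.1 to 106, and in livers Cox6a2 lies at or below 0.0994 in controls and between 0.946 and 14.3 in the KO groups.

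In Tfam KO livers, subunits moved in both directions, and complex IV had a median above 0. Of 84 members, 4 rose and 4 fell (29.3% of all genes called, 18.1% higher and 11.3% lower), with a median log2 fold change of -0.07 beside 0.03 over all genes. On total counts 46 rose and none fell, where 7250 of all 17024 genes rose and 904 fell. Complex IV had 3 higher and none lower of 14 tested, with a median of 0.13, and cytochrome c rose. Complex I had 2 lower of 39, with a median of -0.11, complex II 1 lower of 4, complex V 1 lower of 17 and complex III none of 9. These livers share their 6 controls with the Mfn DKO comparison.

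Besides Cox6a2, the complex IV members called higher were Cox7a2l and Cox4i1, making 3 of 14 tested, where 18.1% of all genes were called higher. Cox7a2l measured 93.9, 98.7, 101, 94.4, 98.2 and 114 CPM in controls and 169, 225 and 116 in Tfam KO livers, replicate 3 lying just above the highest control. The log2 fold change was 0.76 (SE 0.17, adjusted p = 0.00735, edgeR). This is the gene that fell in Clec16a KO islets, so its calls have opposite signs in the 2 tissues, which were not tested against each other. Cox4i1 measured 446 to 585 CPM in controls with a median of 538 and 704, 948 and 607 in Tfam KO livers, without overlap, with a log2 fold change of 0.50 (SE 0.16, adjusted p = 0.0306, edgeR). The call of Cox4i1 was lost in 8 of 21 alternative fits, among them those without control replicate 1, 2 or 5, without Tfam KO replicate 1, and without Tfam KO replicate 2, where it was 0.31. Exons of Emc8 lie opposite 9.9% of Cox4i1.

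Cycs, cytochrome c, which carries electrons and also triggers apoptosis when released, measured 86.6, 92.5, 101, 74.6, 75.2 and 97.5 CPM in controls, and 133, 117 and 109 in Tfam KO livers. All 3 KO libraries lay above all controls, with a log2 fold change of 0.44 (SE 0.12, adjusted p = 0.0178, edgeR), and without replicate 1 it was 0.36 and not called. Of its 75-base stretches, 26.1% occur in processed copies of the gene, so the value is uncertain. In Mfn DKO livers Cycs was at -0.11, not called.

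Among those that fell in Tfam KO livers, Ndufa3 measured 56.0, 51.5 and 83.4 CPM, with a log2 fold change of -0.63 (SE 0.15, adjusted p = 0.0106, edgeR), and Ndufb3 measured 60.2, 51.5 and 80.0, with -0.60 (SE 0.15, adjusted p = 0.0129, edgeR). Replicate 3 was the nearest to controls for both genes, at 83.4 against a lowest control of 85.7 for Ndufa3 and 80.0 against 81.2 for Ndufb3. Both calls were lost without Tfam KO replicate 1 or 2. Sdhc, the anchor of complex II that holds its haem with Sdhd, measured 233 to 257 CPM in controls and 170.1, 137 and 233 in Tfam KO livers, the last just below the lowest control, at -0.46 (SE 0.15, adjusted p = 0.0309, edgeR). Its call was lost in 8 of 21 alternative fits, among them those without control replicate 1 or 6 or Tfam KO replicate 1 or 2. Atp5j, coupling factor 6 of the stalk of complex V, was at -0.40 (SE 0.14, adjusted p = 0.0448, edgeR), and lost its call in 16 of 21 alternative fits.

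Tfam KO libraries differed among themselves. On the TMM scale, replicate 2 was the lowest of the 3 for 55 of 84 members and yet the highest for Cox7a2l and Cox4i1. Its TMM factor was 1.43, against 1.16 in replicate 1 and 1.04 in replicate 3. Before scaling, the members took the largest share of counts in replicate 2, at 2.34% against 1.93% and 1.74%. Replicate 3 lay nearest to controls. Without replicate 3, 4 members rose and 23 fell, without replicate 2, 3 rose and none fell, and without replicate 1, 2 rose and none fell. Without control replicate 1, 3 rose and 2 fell. The share of all genes called in these refits is not given, so a change particular to the members cannot be told from one over all genes. Hepatocyte markers summed to 95800 to 139300 CPM in controls, 81240 to 101100 in Mfn DKO and 23070 to 96950 in Tfam KO, with 3 of 9 called lower in Tfam KO. Their part in the members' values was not tested.

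Set directly against Mfn DKO, Tfam KO livers had 0 of 84 members called by edgeR (0.294% of all genes called). At an unadjusted p under 0.05 there were 9 members (10.7%), beside 20.4% of all genes. The Wald test of DESeq2 called 3 members, where it called 1087 of 14271 genes. On total counts 7 members were higher, where 1140 of 17024 genes were. The smallest p-values were those of Cycs, at 0.55 (log2, adjusted p = 0.0956, edgeR), and Ndufa12, at 0.45 (adjusted p = 0.101). Of the wider pathway, 11 of 11 mitochondrial-DNA-encoded subunits fell in Tfam KO livers, with a median of -4.32, and 3 of 11 in Mfn DKO, with a median of -0.97, none of which held on total counts. Of 51 assembly factors, 9 rose and 9 fell in Tfam KO livers, where on total counts 27 rose and none fell, and 5 fell in Mfn DKO, where on total counts 2 rose and 1 fell. Surf1 was at -0.50 in Mfn DKO and -0.59 in Tfam KO. Ppargc1a rose in both, by 0.66 and 0.63.

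Over the 5 comparisons of KO with control, 19 members were called at least once. Cox6a2 was called in 3, each time higher, and Cox7a2l in 3, higher in 1 and lower in 2. Ndufa3 and Ndufb3 were called in the 2 liver comparisons that share controls. The remaining 15 were called once.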

How the data were processed

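RNA-seq files of 46 libraries in 11 groups and 3 experiments were used. Per the labels, total RNA was treated with DNase and read at both ends over 151 bp. Per the submitters' processing notes, STAR 2.6.1b, RSEM 1.3.1, featureCounts, FastQC, MultiQC, DESeq2 and the build GRCm38 were used, with no role stated. The strand setting is not given in the sources used here. Per the file headers, each deposited file lists raw counts, TPM and CPM for the same 55487 genes. The authors' counts were whole numbers, used as deposited. The authors' CPM equalled the count over the library total, and the authors' TPM implied the exonic gene length of GENCODE M21 within 1% for 98.6% of 8397 well-covered genes, so exonic length sets the TPM of a gene with long, rarely used exons. Of genes with 1 to 20 counts, 63.2% to 66.6% had an even count in livers and 59.3% to 63.0% in Tfam islets, against 40.3% to 44.3% in Clec16a islets, so totals may count reads in the first 2 experiments and pairs in the third.

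Each experiment was fitted alone, over all its groups, in R 4.3.3 with edgeR 4.0.16: TMM, filterByExpr, the quasi-likelihood F-test and Benjamini-Hochberg adjustment over all tested genes. The comparison of Tfam KO islets over both sexes had sex as a term, and 12 comparisons were made. The SE is the size of the log2 fold change over the square root of F. The procedure was tested on simulated data. The members and lists were chosen with earlier results of these data known. Named genes follow a rule: per comparison at most the 10 called members with the smallest adjusted p, or the 2 with the smallest p where none was called; per complex the 2 highest and the lowest member by mean TPM; isoform families; members called in opposite directions or in at least 3 comparisons; targeted genes; and at most 3 genes of a list. Cox4i2, Uqcrq and Ndufa4l2 in Clec16a islets and the markers of muscle, brown fat and Itgad were named after their values were seen.

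Of 92 members, 84 were tested in each experiment, 83 in all 3. Of the tested and untested members together, 17 share at least 20% of their 75-base stretches with other genes and 32 are overlapped by an exon of another gene. Promoters came from RefSeq on GRCm38.p6, and no protein sequences were used.

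Alternatives were DESeq2 size factors, the Wald test of DESeq2 1.42.0, no filter, at least 10 counts in every sample, the replicate number as a block, each library left out, only the groups compared, and, where they apply, no sex term, the exocrine score, the lane or Xist as covariates. Total counts without a scaling factor, and TMM over control libraries or leaving each out for levels, were added after the data were seen. Replicate numbers did not pair the libraries: the median correlation of residuals of libraries with the same number was 0.07 in Tfam islets, -0.02 in Clec16a islets and 0.09 in livers.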

Additional observations from a re-analysis of the deposited data

Results flagged for a closer look

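Cox7a2l in Clec16a control islets on HFD had 1 library apart from the rest: replicate 4 measured 93.1 CPM, the lowest of 6, where the next was 113 and the highest 124. Without it the log2 fold change on HFD was -0.48 and kept its call.

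Ndufab1 in Mfn DKO livers had replicate 2 at 41.5 CPM, the highest of 4, where the next was 34.7 and the lowest 33.6. In all, 47 groups of 4 to 10 libraries were examined for a library standing apart, and chance alone marks about 1 group in 20.

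The symbol Ndufb1-ps was set aside by the rule on names ending in -ps, yet it had counts in every library, from 267 to 2752. These counts entered no comparison here.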

How the results depend on the processing

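No direction reversed for a called gene. Over 29 calls and 640 alternative fits of them, 506 kept the call and 134 lost it. Members called (main count first) moved by over 1.5 times as follows. On total counts without a scaling factor, added after the data were seen, they were 45 in place of 8 in Tfam KO islets, 26 for 3 in females, 30 for 1 in males, 2 for 1 in Clec16a KO islets on RFD, 4 for 2 on HFD, 3 for 6 in Mfn DKO livers, 46 for 8 in Tfam KO livers and 7 for 0 between the KO livers. With no filter on low counts they were 5 in females, 4 in males, 2 on RFD, 1 on HFD, 3 in Mfn DKO and 5 in Tfam KO livers. With at least 10 counts in every sample they were 3 in males, 2 on RFD and 4 on HFD. DESeq2 size factors gave 2 in males. The Wald test of DESeq2 gave 6 in females, 4 in males, 2 on RFD, 5 on HFD, 19 in Mfn DKO and 16 in Tfam KO livers, and 3 between them. With only the compared groups in the fit they were 9 in males, 27 in Mfn DKO and 4 in Tfam KO livers. The exocrine score as covariate gave 0 in males, 3 on RFD and 4 on HFD, and the lane 2 on RFD and 5 on HFD. Apart from fits with fewer samples, the cause was not tested.

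Replicate numbers share only a number here, and with the replicate block the counts were 1 on HFD, 1 in Mfn DKO and 1 in Tfam KO livers, while 13 of 29 calls were kept and 16 lost.

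Leaving out 1 library gave 5 to 23 in Tfam KO islets, 2 to 11 in females, 0 to 9 in males, 1 to 3 on RFD, 1 to 5 on HFD, 1 to 16 in Mfn DKO livers, 2 to 27 in Tfam KO livers and 0 to 6 between them. The extremes came without male KO replicate 2 (5) and female control replicate 4 (23, 11 and 9), and without Mfn DKO replicate 1 (1) and Tfam KO replicate 2 or 3 (16). Without Tfam KO replicate 1 the count was 2, and without replicate 3 it was 27 and, between the KO livers, 6. Shares of all genes called in these refits are not set beside the counts. In 3 comparisons of diet or its interaction, and in the interaction with sex, every alternative gave 0. Members higher in livers than islets were 73, and 73 to 75 without 1 control library or 76 with TMM-scaled counts. Low counts kept 7 members from any test: Ndufa11b, Ndufb4c, Cox6c2, Cox7b2, Cox8b, Cox8c and the second Atp5o identifier. Ndufs6b had at most 27 counts.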
